A study of Mus musculus with 6 samples.

Results

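The 10 genes described here encode the transcription factor NF-kB, proteins that hold it in check, the adaptor Myd88 and the cytokine TNF. They were chosen by name and function, with earlier results of these data known: the subunit genes Nfkb1, Nfkb2, Rel, Rela and Relb, the inhibitor genes Nfkbie and Bcl3, the feedback gene Tnfaip3, Myd88 and Tnf. They are 10 of the 49585 genes counted, and all 10 passed the filter on low counts that left 11041 genes for testing. Transcripts were counted by bulk RNA sequencing in sorted microglia, the macrophages that live in the brain. There were 3 libraries from mice labelled WT (wild type) and 3 from mice labelled IRF8KO, a label for the knockout of Irf8, which encodes a macrophage transcription factor. The mice were male and 3 months old, no treatment is listed, and the cells were freed from each brain without enzymes and sorted. The strain, the knockout allele, the cells in which it was deleted and the sorting gate are not given in the sources used here.

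NF-kB works as pairs of the 5 subunits, which share a DNA-binding region. In resting cells inhibitor proteins of the I-kappa-B family keep most pairs out of the nucleus. Signals from Toll-like receptors through MyD88, or from TNF through its receptors, activate a kinase complex that marks the inhibitor for destruction, and the freed pairs of Rela or Rel with the product of Nfkb1 turn on cytokine and inhibitor genes. A slower branch processes the product of Nfkb2, whose usual partner is Relb. In microglia this system drives much of the cytokine response to microbial products and injury.

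The genome sequence just before a gene's start is where such factors often bind, so the promoters of 2 genes with higher transcript levels in IRF8KO (Nfkb2 and Bcl3) and of 2 without (Tnfaip3 and Tnf) are shown. They are the RefSeq promoters of assembly GRCm38.p6, from 250 bases before to 50 bases after the start, written 5′ to 3′ on the strand of the gene. Capitals mark every match to a loose form of the kappa B motif that NF-kB binds, the letters GGG, any 5 bases and CC, searched on both strands, so that overlapping matches run together. Of the 10 genes, 8 were matched to a promoter, with 11 starts in all, and the other two are Nfkb1 and Relb.
Nfkb2, first start, chr19:46304487-46304786, plus strand: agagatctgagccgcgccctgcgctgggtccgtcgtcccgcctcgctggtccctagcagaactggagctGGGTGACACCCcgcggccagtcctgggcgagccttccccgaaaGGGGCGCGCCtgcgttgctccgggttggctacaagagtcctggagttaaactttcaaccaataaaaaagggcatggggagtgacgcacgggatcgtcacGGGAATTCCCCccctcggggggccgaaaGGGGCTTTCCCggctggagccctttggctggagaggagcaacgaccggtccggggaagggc
Bcl3, chr7:19822706-19823005, minus strand: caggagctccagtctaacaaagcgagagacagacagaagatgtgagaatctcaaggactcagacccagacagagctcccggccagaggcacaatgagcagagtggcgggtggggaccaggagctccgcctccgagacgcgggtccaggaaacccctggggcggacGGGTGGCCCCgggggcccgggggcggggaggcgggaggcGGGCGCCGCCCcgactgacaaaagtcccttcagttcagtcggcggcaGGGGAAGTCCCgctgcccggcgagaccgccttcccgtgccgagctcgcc
Tnfaip3, first start, chr10:19015361-19015660, minus strand: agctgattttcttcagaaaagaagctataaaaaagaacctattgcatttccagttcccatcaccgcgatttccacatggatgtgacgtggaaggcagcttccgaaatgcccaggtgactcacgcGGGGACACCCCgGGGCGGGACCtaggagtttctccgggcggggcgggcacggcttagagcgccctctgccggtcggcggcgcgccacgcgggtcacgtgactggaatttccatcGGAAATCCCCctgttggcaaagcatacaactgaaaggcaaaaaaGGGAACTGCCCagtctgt
Tnf, chr17:35201958-35202257, minus strand: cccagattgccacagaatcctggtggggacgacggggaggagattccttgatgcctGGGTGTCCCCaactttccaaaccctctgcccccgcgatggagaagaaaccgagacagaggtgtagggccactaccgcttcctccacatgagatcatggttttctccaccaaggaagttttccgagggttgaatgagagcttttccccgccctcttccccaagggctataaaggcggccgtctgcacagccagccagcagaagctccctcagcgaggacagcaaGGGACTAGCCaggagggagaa
The loose motif was found in 10 of the 11 promoters, all but that of Myd88, and in 50.8% of the 32851 RefSeq promoters of this length. A narrower form, GGG, any 2 bases and TTTCC, was in 1.63% of all promoters and in 5 of the 11: the 3 of Nfkb2, that of Rel and the first of Tnfaip3. These are 4 places in the genome, since the promoters of the later starts of Nfkb2 overlap and share 1 match. Interferon-type letters, a pair of GAAA parted by any 2 bases, were found in 3.44% of all promoters and, among the 8, in Myd88 alone, as GAAAGCGAAA from 40 to 31 bases before the start. A composite of the kind bound by ETS factors with IRF proteins, GGAA and GAAA parted by any 2 bases, stood in 2.72% of all promoters and in none of the 8. A match is a description of letters and not a binding site.

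The libraries held between 3658917 and 11098363 gene counts. Transcripts of Irf8 itself were not called different (log2 fold change −0.44, SE 0.33, edgeR adjusted p = 0.368) but were called lower with a GC correction and with library size alone (edgeR adjusted p = 0.00758 for the latter), and a count over the whole gene cannot show which transcripts lack an exon, so directions rest on the labels. CPM, used throughout, are counts scaled to 1000000 of the library size after TMM scaling. Of 9 microglial markers 4 fell, 1 rose and 4 were not called. The microglial factor Sall1 was at 50.9 to 143 CPM in WT and at 0 counts in IRF8KO, which allows up to 3 over the group, while Csf1r was at 12259 CPM or more in all 6. Apoe alone took 248368 to 485777 CPM in IRF8KO, against 1182 to 3526 CPM in WT. WT replicate 3 stood apart from WT replicates 1 and 2 (correlation of log2 CPM 0.892 and 0.897, against 0.969 between the latter). The 13 genes of handling and early response summed to 6058 and 11800 CPM in WT replicates 1 and 2, 849 CPM in WT replicate 3 and 814 to 1096 CPM in IRF8KO. IRF8KO replicate 2 carried neutrophil transcripts, such as S100a8 at 120.9 CPM, against at most 0.801 CPM in any other library (chosen after its values were seen). Calls that changed without these libraries are given beside the results.

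Levels of the 10 genes spanned more than 2 orders of magnitude per kb of exon, in both genotypes. In WT, Rela led with 148 ± 70.5 CPM per kb, followed by Myd88 with 54.1 ± 12.7 CPM per kb (SD, n = 3), and neither range overlapped that of the next gene. Below them Nfkbie, Nfkb1, Tnf, Relb, Nfkb2, Tnfaip3, Bcl3 and Rel followed from 15.3 down to 0.904 CPM per kb, and each overlapped its neighbour in this order. In IRF8KO, Rela and Myd88 were again first and second, at 141 ± 32.0 and 59.5 ± 9.41 CPM per kb. Relb, Nfkbie, Nfkb2 and Bcl3 then formed a run from 27.7 to 17.3 CPM per kb whose ranges overlapped from neighbour to neighbour, and the lowest Bcl3 value, 13.46 CPM per kb, lay above the highest of Tnf, 8.40 CPM per kb. Bcl3 was thus ninth of 10 in WT and sixth in IRF8KO. Exonic length here is the union of annotated exons, which lowers the level of a gene where part of that length is not used.

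Transcripts of 3 genes, Bcl3, Nfkb2 and Relb, rose in IRF8KO, and those of 1 gene, Nfkb1, fell. These 4 calls among 10 genes stand beside 19.1% of all genes tested, and the shares of all genes called higher and lower were 9.64% and 9.46%. A gene was called where its adjusted p from edgeR was under 0.05. The 3 libraries of each genotype did not overlap for 6 of the 10 genes, against 37.9% of all genes tested: Bcl3, Nfkb2, Relb and Nfkbie were above WT in every IRF8KO library, and Nfkb1 and Tnfaip3 below it. The median log2 fold change of the 10 genes was 0.03, beside −0.11 over all genes tested. The plot of levels in each library shows these values.

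**Figure D1:**
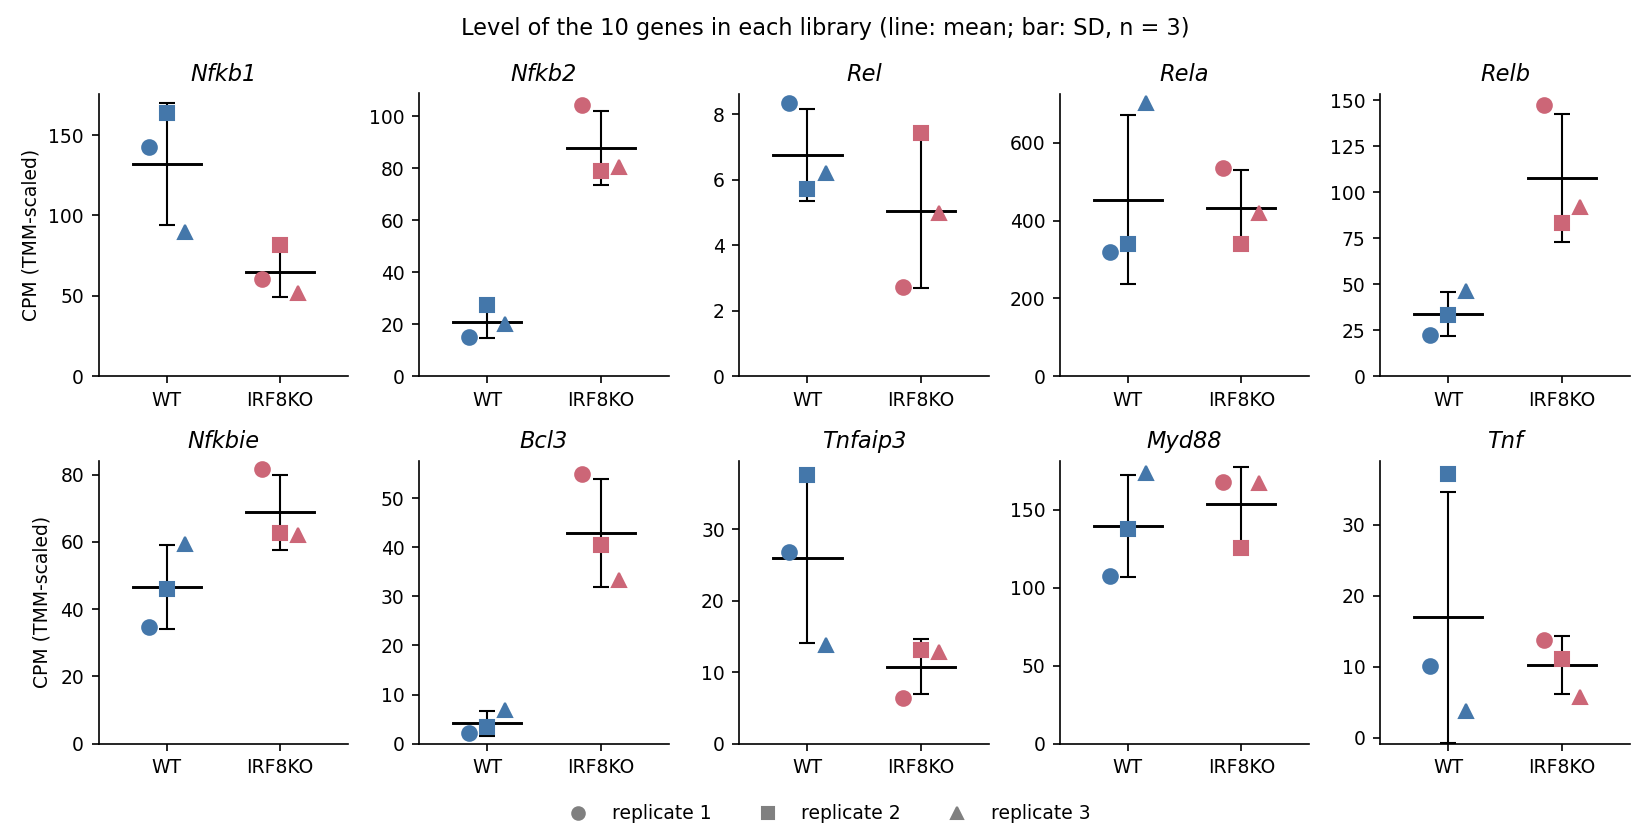
Level of each of the 10 genes (y axis, TMM-scaled CPM, each panel with its own scale) in the 3 WT (blue) and 3 IRF8KO (red) libraries. Point shapes give the replicate number, lines the group mean and bars the SD (n = 3). Nfkb2, Relb and Bcl3 lie higher in every IRF8KO library and Nfkb1 lower, while the Tnf values of WT run from 3.71 to 37.1 CPM.

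Among the subunits, Nfkb2 encodes the precursor whose processing defines the slower branch. It had 14.9, 27.3 and 20.2 CPM in WT replicates 1, 2 and 3 and 104, 78.8 and 80.4 CPM in IRF8KO replicates 1, 2 and 3. Every IRF8KO value was more than double the highest WT value, and the raw counts behind them ran from 77 to 880. Nfkb2 was 4.19-fold higher in IRF8KO, a log2 fold change of 2.07 (SE 0.31, adjusted p = 0.000887 by the edgeR quasi-likelihood test). Nfkb2 (ENSMUSG00000025225, chromosome 19, 46304320 to 46312385, plus strand) shares 6.52% of its exonic length with Psd on the other strand, which had at most 66 counts in a library. The files count reads that fall on several genes in a line of their own, outside both genes.

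Relb, the usual partner of that product, had 22.1, 33.2 and 46.3 CPM in WT replicates 1 to 3 and 147, 83.3 and 92.1 CPM in IRF8KO replicates 1 to 3. The lowest IRF8KO value, in replicate 2, was above the highest WT value, in replicate 3. Relb was 3.17-fold higher, a log2 fold change of 1.66 (SE 0.35, adjusted p = 0.00643 by the edgeR quasi-likelihood test). Against WT replicate 3 alone it was 1.21 and not called (edgeR adjusted p = 0.0721), a fit that assumes this lone library to vary as the IRF8KO libraries do. Relb (ENSMUSG00000002983) lies on chromosome 7 at 19606217 to 19629438 on the minus strand, and no exon of it overlaps another gene.

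Nfkb1, whose product is the usual partner of Rela and Rel, went the other way. It had 142, 164 and 89.7 CPM in WT replicates 1 to 3 and 60.7, 81.5 and 51.7 CPM in IRF8KO replicates 1 to 3. WT replicate 3 was the lowest of its group and stood 8.2 CPM above the highest IRF8KO library, replicate 2. Within WT, Nfkb1 had the order of the summed handling genes (849 CPM in replicate 3, 6058 CPM in replicate 1 and 11800 CPM in replicate 2), and within IRF8KO it did not. The part of handling in the Nfkb1 values was not tested. The log2 fold change was −1.03 (SE 0.31; edgeR quasi-likelihood test, adjusted p = 0.0392). This call was lost without WT replicate 1, WT replicate 2, IRF8KO replicate 1 or IRF8KO replicate 3, with edgeR adjusted p from 0.0999 to 0.193, and against WT replicate 3 alone (−0.45, edgeR adjusted p = 0.456). Nfkb1 (ENSMUSG00000028163) spans 135584655 to 135691547 on chromosome 3, minus strand.

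Rela and Rel, which carry the activating domains of the fast branch, were not called. Rela had 318, 340 and 704 CPM in WT replicates 1 to 3 and 537, 341 and 420 CPM in IRF8KO replicates 1 to 3, with a log2 fold change of −0.07 (SE 0.36; edgeR adjusted p = 0.915). The groups overlapped, and the highest Rela value of all came from WT replicate 3. Without that library the log2 fold change of Rela was 0.42, not called either (edgeR adjusted p = 0.127). Rel was the least abundant subunit, with 8.35, 5.72 and 6.19 CPM in WT replicates 1 to 3 and 2.72, 7.43 and 4.98 CPM in IRF8KO replicates 1 to 3. Its counts were as low as 17 in IRF8KO replicate 1, with an exact 95% Poisson interval of 9.90 to 27.2 that covers counting error only. Its log2 fold change was −0.40 (SE 0.53; edgeR adjusted p = 0.635), and IRF8KO replicates 1 and 2 differed by more than their counting intervals.

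Ratios between genes within a library do not depend on the scaling of that library. The count of Nfkb2 divided by that of Nfkb1 was 0.105, 0.167 and 0.225 in the WT libraries, in order of replicate. In the IRF8KO libraries it was 1.72, 0.967 and 1.55. The ratio of the medians was 9.32. Per kb of exon Nfkb2 was below Nfkb1 in all 3 WT libraries and above it in all 3 IRF8KO libraries. Relb over Rela was 0.0695, 0.0976 and 0.0658 in WT and 0.275, 0.244 and 0.219 in IRF8KO, in the same order, again with no overlap. By contrast, Relb over Nfkb2 ran from 1.22 to 2.29 in WT and from 1.06 to 1.41 in IRF8KO and overlapped. These ratios were formed after the levels were seen and are given as a description.

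Taken per kb of exon, the make-up of the subunit transcripts differed between the genotypes while their sum overlapped. The sum was 173 ± 70.3 CPM per kb in WT and 194 ± 42.7 CPM per kb in IRF8KO (SD, n = 3). Rela made up 84.1% ± 5.63 of it in WT and 72.6% ± 2.10 in IRF8KO. Nfkb2 and Relb had 2.87% ± 1.28 and 5.12% ± 0.873 in WT and 9.98% ± 0.813 and 14.1% ± 1.47 in IRF8KO. Nfkb1 had 7.35% ± 3.83 and 2.91% ± 1.20, in the same order, where WT replicate 3, at 2.93%, fell among the IRF8KO libraries. The bars of subunit shares show all 6 libraries. These are shares of transcripts, and protein and its processing were not measured.

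**Figure D2:**
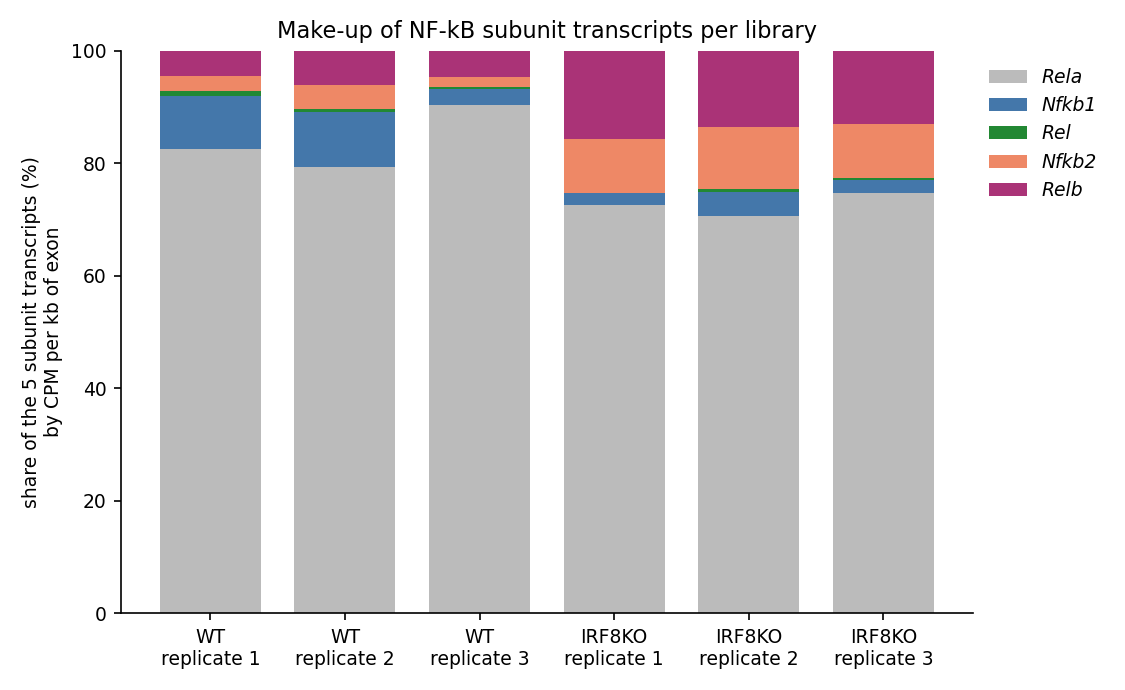
Share of the 5 NF-kB subunit transcripts (y axis, %, by CPM per kb of exon, stacked to 100%) in each library (x axis). Rela takes most of every bar, and Nfkb2 and Relb together are wider in each IRF8KO library than in any WT library.

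Of the inhibitors, Bcl3 showed the largest change of the 10 genes. It encodes an unusual member of the I-kappa-B family that acts in the nucleus on pairs of the processed Nfkb1 or Nfkb2 products. Bcl3 had 2.13, 3.32 and 6.88 CPM in WT replicates 1 to 3, from 11, 47 and 50 counts, and 54.9, 40.4 and 33.3 CPM in IRF8KO replicates 1 to 3, from 343, 451 and 308 counts. The lowest IRF8KO value was several times the highest WT value, and the 95% Poisson intervals of the counts do not change that order (up to 9.06 CPM in WT replicate 3, down to 29.7 CPM in IRF8KO replicate 3). Bcl3 was 10.3-fold higher, a log2 fold change of 3.37 (SE 0.45, adjusted p = 0.000427 by the edgeR quasi-likelihood test). Bcl3 (ENSMUSG00000053175, chromosome 7, 19808462 to 19822770, minus strand) shares 6.51% of its exons with the antisense gene Gm16175, which had 0 counts in all 6 libraries.

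Nfkbie encodes I-kappa-B epsilon, which holds NF-kB pairs in the cytoplasm. It had 34.5, 45.8 and 59.3 CPM in WT replicates 1 to 3 and 81.7, 62.5 and 62.1 CPM in IRF8KO replicates 1 to 3. The groups did not overlap, by 2.83 CPM, and the difference was not called (log2 fold change 0.56, SE 0.29; edgeR adjusted p = 0.203). Without WT replicate 3 it was called, at 0.80 (edgeR adjusted p = 0.0241). Nfkbie (ENSMUSG00000023947) lies on chromosome 17 at 45555703 to 45563169, plus strand.

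The other members of the I-kappa-B family, taken from a list of the pathway, were not called. Nfkbia, the inhibitor that is destroyed and remade in each round of signalling, had 133, 151 and 51.0 CPM in WT replicates 1 to 3 and 153, 180 and 247 CPM in IRF8KO replicates 1 to 3. The log2 fold change of Nfkbia was 0.79 (SE 0.39; edgeR adjusted p = 0.173), and it was called against WT replicate 3 alone, at 1.93 (edgeR adjusted p = 0.00744). Nfkbib had a log2 fold change of 0.56 (SE 0.28; edgeR adjusted p = 0.189). The nuclear members Nfkbid and Nfkbiz, at −0.75 and −0.53 (edgeR adjusted p of 0.473 and 0.609), were highest in WT replicate 2 and lowest in WT replicate 3. Nfkbid ran from 11.3 to 176 CPM within WT, and Nfkbiz from 2.89 to 36.8 CPM. Against WT replicate 3 alone both were called higher in IRF8KO, at 2.21 and 2.29 (edgeR adjusted p of 0.0234 and 0.0474), and without WT replicate 3 Nfkbid was called lower, at −1.26.

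Tnfaip3 encodes a ubiquitin-editing enzyme that NF-kB induces and that ends its own activation. It had 26.8, 37.6 and 13.8 CPM in WT replicates 1 to 3 and 6.40, 13.1 and 12.9 CPM in IRF8KO replicates 1 to 3. All IRF8KO values lay below WT, but the gap between WT replicate 3 and IRF8KO replicate 2 was 0.682 CPM. A log2 fold change of −1.27 (SE 0.45) missed the edgeR threshold (adjusted p = 0.0673), and it was called by DESeq2 (−1.22, adjusted p = 0.0474), with no expression filter (−1.27, edgeR adjusted p = 0.0279) and without WT replicate 3 (−1.52, edgeR adjusted p = 0.0147). It was −0.91 without WT replicate 2 (edgeR adjusted p = 0.295) and −0.33 against WT replicate 3 alone (edgeR adjusted p = 0.769), not called in either. Tnfaip3 followed the order of the summed handling genes in WT and not in IRF8KO, and their part in it was not tested. Without WT replicate 3, 6 of the 10 genes were called, beside 33.5% of all genes tested in that fit. Tnfaip3 (ENSMUSG00000019850) lies on chromosome 10 at 19000910 to 19015657, minus strand.

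Myd88, the adaptor of most Toll-like receptors and of the interleukin-1 receptor, was not called. It had 108, 137 and 173 CPM in WT replicates 1 to 3 and 168, 125 and 167 CPM in IRF8KO replicates 1 to 3, with full overlap. The log2 fold change was 0.14 (SE 0.29; edgeR adjusted p = 0.773), and its sign turned with some settings, library size alone among them. Myd88 (ENSMUSG00000032508, chromosome 9, 119335934 to 119341411, minus strand) shares 11.3% of its exons with Acaa1a on the other strand, a gene with 872 to 2593 counts per library, and the counting did not use strand.

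Tnf, which encodes the cytokine that both activates NF-kB and is induced by it, varied widely among the WT libraries. It had 10.1, 37.1 and 3.71 CPM in WT replicates 1 to 3, from 52, 525 and 27 counts, and 13.8, 11.1 and 5.73 CPM in IRF8KO replicates 1 to 3. The 3 IRF8KO values lay inside the WT range, whose ends were WT replicates 2 and 3. The log2 fold change was −0.75 (SE 0.68; edgeR adjusted p = 0.474), 0.56 without WT replicate 2 (edgeR adjusted p = 0.642) and 1.46 against WT replicate 3 alone (edgeR adjusted p = 0.244). In WT the order of Tnf over the libraries was that of the summed handling and early response genes, 849 CPM in replicate 3, 6058 CPM in replicate 1 and 11800 CPM in replicate 2. In IRF8KO it was not: Tnf was lowest in replicate 3, and that sum in replicate 2. The part of handling in these values was not tested. Tnf (ENSMUSG00000024401) lies on chromosome 17 at 35199381 to 35202007, minus strand. Its neighbours Lta and Ltb, which encode lymphotoxins, were at 0 counts in every library and at 0.716 to 6.22 CPM.

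**Figure D3:**
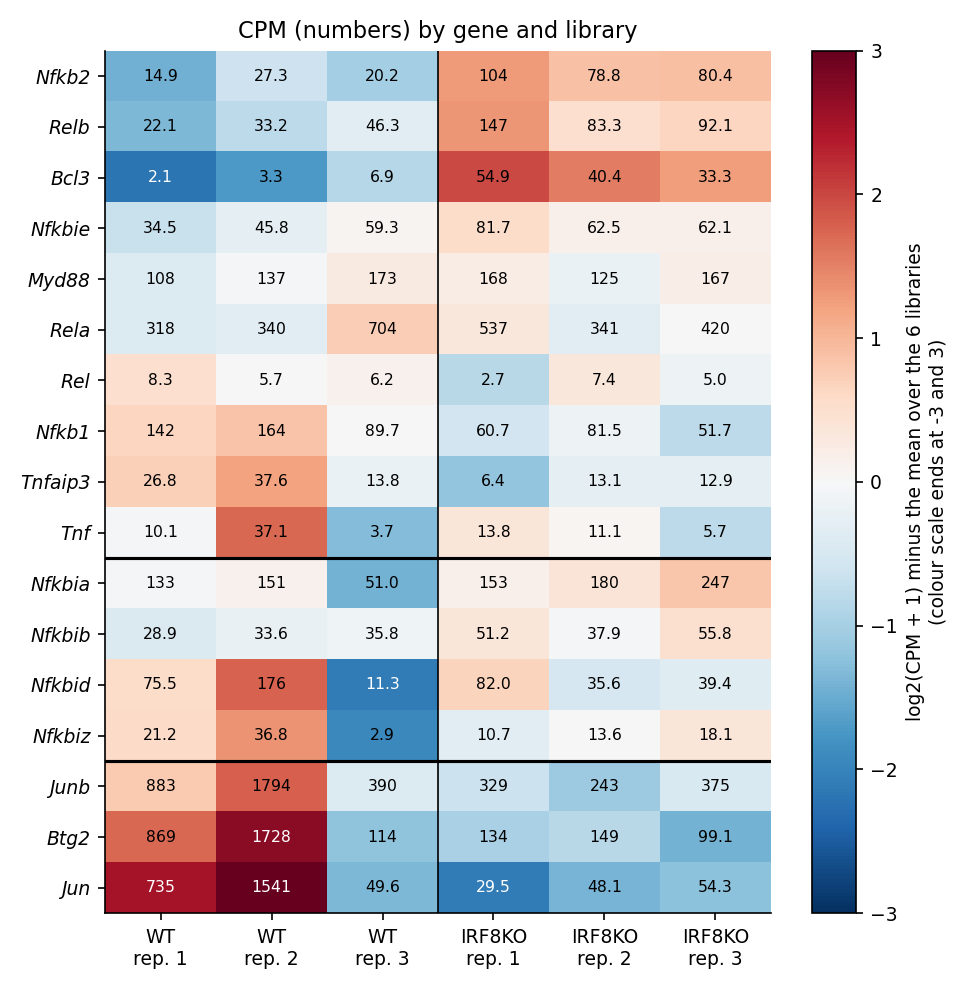
Each cell gives the CPM of a gene (rows) in a library (columns), coloured by log2(CPM + 1) minus the mean of the gene over the 6 libraries. Lines set off the 10 genes, the other I-kappa-B genes and 3 handling genes, and the vertical line parts WT from IRF8KO. Tnf, Nfkbid and Nfkbiz are highest in WT replicate 2 and lowest in WT replicate 3, and the handling gene Jun is at 1541 and 49.6 CPM in these libraries.

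The order of fold changes put the 3 called increases apart from the other genes. Bcl3 and Nfkb2 were called in each of the 18 other ways of processing, with log2 fold changes from 2.64 to 3.94 and from 1.54 to 2.31. Relb was called in 17 of 18, from 1.17 to 1.97. Nfkb1 kept its negative sign in all 18 and its call in 13, from −1.55 to −0.45. The GC content of the transcripts was 62.6%, 59.4% and 56.8% in Bcl3, Nfkb2 and Relb and 44.9% in Nfkb1. Among the uncalled genes it was 59.4% in Rela, 55.4% in Nfkbie, 53.5% in Myd88, 52.1% in Tnf, 47.1% in Tnfaip3 and 42.5% in Rel. With a correction of each library for GC content the log2 fold changes were 3.14, 1.71 and 1.37 for Bcl3, Nfkb2 and Relb and −0.67 for Nfkb1, all 4 still called (edgeR adjusted p from 0.000124 to 0.0265).

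**Figure D4:**
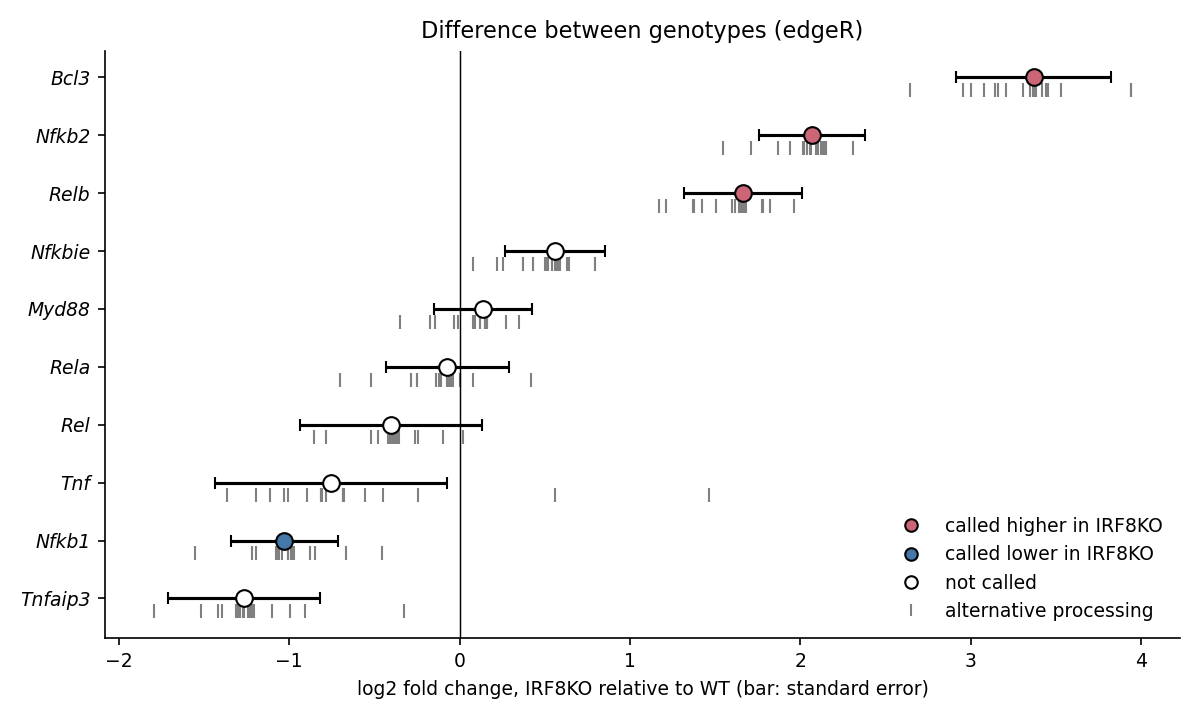
Log2 fold change of IRF8KO relative to WT (x axis) for the 10 genes (y axis), with the edgeR standard error as a bar. Filled circles were called, and grey ticks give the same value under each of the 18 other ways of processing. Bcl3, Nfkb2 and Relb stay above 1 throughout, while the ticks of Tnf reach from −1.37 to 1.46.

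Markers of other cells moved in both directions. The list for border-associated macrophages, which line the vessels and coverings of the brain, summed to 608 to 832 CPM in WT and 3698 to 4900 CPM in IRF8KO. Stab1 made up most of the WT sum, at 601 to 821 CPM. Pf4 and Ms4a7 were at most 2.61 CPM in WT and at least 293 CPM in IRF8KO. Of the 9 genes of this list, all 7 that could be tested were called higher, while Lyve1 and Cd209f had 0 counts in every library. Their part in the Bcl3, Nfkb2 and Relb values was not tested, and in bulk RNA a change in the number of cells of a type and in RNA per cell cannot be told apart. Of 9 neutrophil genes 2 could be tested. Cxcr2 was called higher, with 0 counts in WT and 1.601, 4.12 and 1.73 CPM in IRF8KO replicates 1 to 3, and Csf3r, at 649 to 1281 CPM in all libraries, was not called. S100a8, S100a9, Ngp, Camp and Ltf were at 35.2 CPM or more in IRF8KO replicate 2 and under 1 CPM elsewhere. Without that library the log2 fold changes of Bcl3, Nfkb2 and Relb were 3.42, 2.15 and 1.82, and the part of neutrophils in the other libraries was not tested. The lymphocyte list summed to 517 to 857 CPM in WT and 29.5 to 40.8 CPM in IRF8KO. Both of its testable genes fell, Ighm from 587 ± 154 to 17.6 ± 3.64 CPM and Cd79b from 75.8 ± 22.4 to 17.1 ± 2.65 CPM, while Cd3e and Cd3g had 0 counts throughout. The neuron genes Rbfox3 and Syt1 rose to 12.4 ± 1.61 and 4.59 ± 1.90 CPM, the astrocyte gene Gfap rose to 15.7 ± 7.76 CPM and Slc1a3 fell to 8.74 ± 6.53 CPM, and the endothelial gene Pecam1 fell to 1.95 ± 1.25 CPM. Another endothelial gene, Flt1, did not pass the filter on low counts, with 0 counts in WT and 0.801, 7.88 and 6.38 CPM in IRF8KO replicates 1 to 3. No oligodendrocyte or monocyte gene was called by edgeR among the 3 and 1 tested. The oligodendrocyte list summed to 126 to 416 CPM in WT and 435 to 616 CPM in IRF8KO, with Mbp at 43.9 to 274 CPM and 364 to 544 CPM (edgeR adjusted p = 0.0556), and the monocyte gene Chil3 was at 34.6 CPM in IRF8KO replicate 2 and 0 elsewhere. The part of these cells in the 10 genes was not tested.

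Bcl3 and Relb lie on the same stretch of chromosome 7, on either side of the Apoe gene cluster, a point looked at after the values were seen. From the start of Relb to the end of Bcl3 are 216554 bases with 17 annotated genes, of which 8 were tested. Called higher were 5 (Relb, Bcl3, Apoe, Apoc1 and Apoc4), beside 9.64% of all genes tested, but Relb and Bcl3 are among them because they bound the stretch. Not called were 3 (Clptm1, Tomm40 and Nectin2). The uncalled genes had log2 fold changes of −0.60, −0.16 and −0.96 (edgeR adjusted p of 0.263, 0.739 and 0.102), and each of them lies between the Apoe cluster and Relb or Bcl3.

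Profiles nearest to a gene over the 6 libraries were sought by the distance between log2 CPM, each centred on its own mean. Nearest to Bcl3 were C130050O18Rik, Cyp4f16 and Metrnl, at distances of 0.679, 0.700 and 0.715 where the median over all genes was 4.69. They too were higher in every IRF8KO library, with log2 fold changes of 3.34, 3.08 and 3.39. As they were chosen by nearness over these same 6 libraries, that likeness comes with the choice. Nearest to Tnf were Zfp983, Tfb2m and Traf6, at 0.855, 0.910 and 0.926 where the median was 2.92. Of these, Zfp983 and Tfb2m were near the limit of detection, at most 3.39 and 2.68 CPM. Traf6, which relays signals from MyD88 to the kinases, had 15.9, 25.1 and 4.40 CPM in WT replicates 1 to 3 and 11.4, 11.5 and 6.06 CPM in IRF8KO replicates 1 to 3.

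The rest of the pathway was followed in 4 lists with 136 genes, of which 115 were tested and 34 were called, 17 in each direction. That is 29.6% of the tested genes, beside 19.1% over all genes, and the lists differed among themselves. The median log2 fold change was 0.45 for inhibitors and feedback, −0.32 for receptors and ligands, −0.66 for adaptors and kinases and 0.59 for target genes, beside −0.11 for all genes tested. The balance moved with the setting: 14 rose and 29 fell with library size alone, 31 and 29 without WT replicate 3, and 13 and 5 without IRF8KO replicate 3. Over all genes tested, the same settings gave 652 higher and 1914 lower, 2168 and 1835, and 524 and 386.

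Of 18 further inhibitors and feedback genes, all tested, 2 rose and 1 fell, which is 16.7% of them and near the 19.1% of all genes. Tnip1, which works with the product of Tnfaip3, rose from 20.0 ± 2.21 to 49.2 ± 4.84 CPM, with a log2 fold change of 1.30 (SE 0.28; edgeR adjusted p = 0.00742). Usp18, better known as an interferon-induced protease that also restrains this pathway, rose from 15.0 ± 0.728 to 39.0 ± 4.98 CPM, by 1.38 (SE 0.30; edgeR adjusted p = 0.00736). Tax1bp1, another partner of the product of Tnfaip3, fell from 24.1 ± 10.3 to 8.10 ± 3.36 CPM (log2 fold change −1.56, SE 0.46; edgeR adjusted p = 0.0347), and lost that call in 7 of 18 other settings, among them the GC correction, the fit against WT replicate 3 alone and those without WT replicate 1, WT replicate 2, IRF8KO replicate 1 or IRF8KO replicate 3. Tnip1 and Usp18 lost theirs with library size alone and against WT replicate 3 alone.

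Of 33 receptors and ligands, 25 were tested, 2 rose and 6 fell, which is 32.0% of those tested, beside 19.1% of all genes. The receptors of TNF itself, Tnfrsf1a and Tnfrsf1b, were not called, with 260 ± 99.99 and 914 ± 301 CPM in WT and 410 ± 65.96 and 731 ± 181 CPM in IRF8KO (SD, n = 3; edgeR adjusted p of 0.181 and 0.543). Without WT replicate 3 Tnfrsf1a was called, at 1.05 (edgeR adjusted p = 0.00239). Tnfrsf1b was called lower with the GC correction and with library size alone (edgeR adjusted p = 0.0207 for the latter). Adam17, the protease that cuts TNF from the cell surface, fell from 99.2 ± 49.3 to 17.2 ± 11.03 CPM (log2 fold change −2.52, SE 0.51; edgeR adjusted p = 0.00514), but against WT replicate 3 alone, at 42.6 CPM, it was −1.27 and not called. Tnfsf13b, the B cell factor BAFF that acts through the slower branch in B cells, fell from 22.03 ± 2.73 to 0.270 ± 0.271 CPM (log2 fold change −6.17, SE 0.68; edgeR adjusted p = 0.000105). Clec7a, a receptor for fungal glucans, and Tlr2, a receptor for bacterial lipoproteins, rose by log2 fold changes of 3.23 and 1.73. Tlr3, Tlr7 and Tlr13, which sense RNA inside the cell, fell by 3.62, 1.75 and 1.53 on the log2 scale (edgeR adjusted p from 0.000715 to 0.0292 for these 5 genes). Tlr7 and Tlr13 lost their calls in 4 and 6 of the 18 other settings, among them, as for Tlr3, the fit against WT replicate 3 alone. Both also lost them without WT replicate 2, IRF8KO replicate 1 or IRF8KO replicate 3, and Tlr13 without WT replicate 1.

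Of 39 adaptors and kinases, 37 were tested, none rose and 4 fell (edgeR). That is 10.8% of those tested, beside 19.1% of all genes tested (9.64% higher and 9.46% lower). The kinase complex itself was not called: Ikbkb, Chuk and Ikbkg had log2 fold changes of −0.27, −0.83 and −0.38 (edgeR adjusted p of 0.581, 0.515 and 0.377). Chuk ran from 0.974 to 15.8 CPM in IRF8KO and from 3.30 to 21.3 CPM in WT. Unc93b1, which carries the inner Toll-like receptors to their compartment, fell from 5484 ± 2538 to 1700 ± 479 CPM (log2 fold change −1.69, SE 0.41; edgeR adjusted p = 0.0146), a call lost without IRF8KO replicate 2 or 3. Traf5, Ticam2 and Ripk2, all signal relays, fell by 1.53, 2.01 and 1.46 on the log2 scale (edgeR adjusted p of 0.0248, 0.0312 and 0.0423), and lost their calls in 6, 6 and 9 of 18 other settings. Each lost it against WT replicate 3 alone and without WT replicate 1, WT replicate 2 or IRF8KO replicate 3, Traf5 and Ripk2 also without IRF8KO replicate 2, and Ticam2 and Ripk2 without IRF8KO replicate 1.

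Of 46 target genes, 35 were tested, 13 rose and 6 fell. That is 54.3% of those tested, beside 19.1% of all genes tested (9.64% higher and 9.46% lower). Ehd1, a membrane-traffic gene, rose from 0.371 ± 0.347 to 34.3 ± 4.75 CPM, with a log2 fold change of 6.36 (SE 0.60; edgeR adjusted p = 3.7e-05). Il1rn, the natural antagonist of the interleukin-1 receptor, had 0 counts in WT and 215 in IRF8KO, at least 71.5-fold higher against a floor of 3 counts over the WT group. The chemokine gene Ccl5, the myeloid gene Slfn2 and the survival gene Bcl2a1d rose by log2 fold changes of 3.46, 1.94 and 3.52 (edgeR adjusted p from 0.000265 to 0.000858), and Bcl2a1d has near-identical copies, which makes its counts uncertain. The chemokine gene Ccl9 fell from 99.6 ± 23.9 to 17.3 ± 2.51 CPM (log2 fold change −2.53, SE 0.31; edgeR adjusted p = 0.000208). Il1b, left out by the naming rule, rose by a log2 fold change of 3.63 (SE 0.56; edgeR adjusted p = 0.000988). Il1a and the co-stimulatory gene Cd86 fell by 3.47 and 1.97 on that scale (edgeR adjusted p of 0.00332 and 0.00868). Both lost their calls against WT replicate 3 alone, and Cd86 also without IRF8KO replicate 1 or 3.

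Ccl3 and Ccl4, chemokine genes that respond fast to stimulation, were also called lower, but their WT libraries were far apart. Ccl3 had 134, 266 and 21.6 CPM in WT replicates 1 to 3 and 25.8, 7.43 and 12.3 CPM in IRF8KO replicates 1 to 3, and Ccl4 had 190, 462 and 55.7 CPM and 81.2, 21.04 and 25.8 CPM. In both, WT replicate 3 was below IRF8KO replicate 1, as for Tnf. Their log2 fold changes were −3.23 and −2.48 (edgeR adjusted p of 0.00973 and 0.0262), and against WT replicate 3 alone −0.53 and −0.40, not called. The call of Ccl3 was also lost without IRF8KO replicate 3, and that of Ccl4 with DESeq2 and without WT replicate 2, IRF8KO replicate 2 or IRF8KO replicate 3. The plot of the lists shows the called genes on either side of the middle of all genes.

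**Figure D5:**
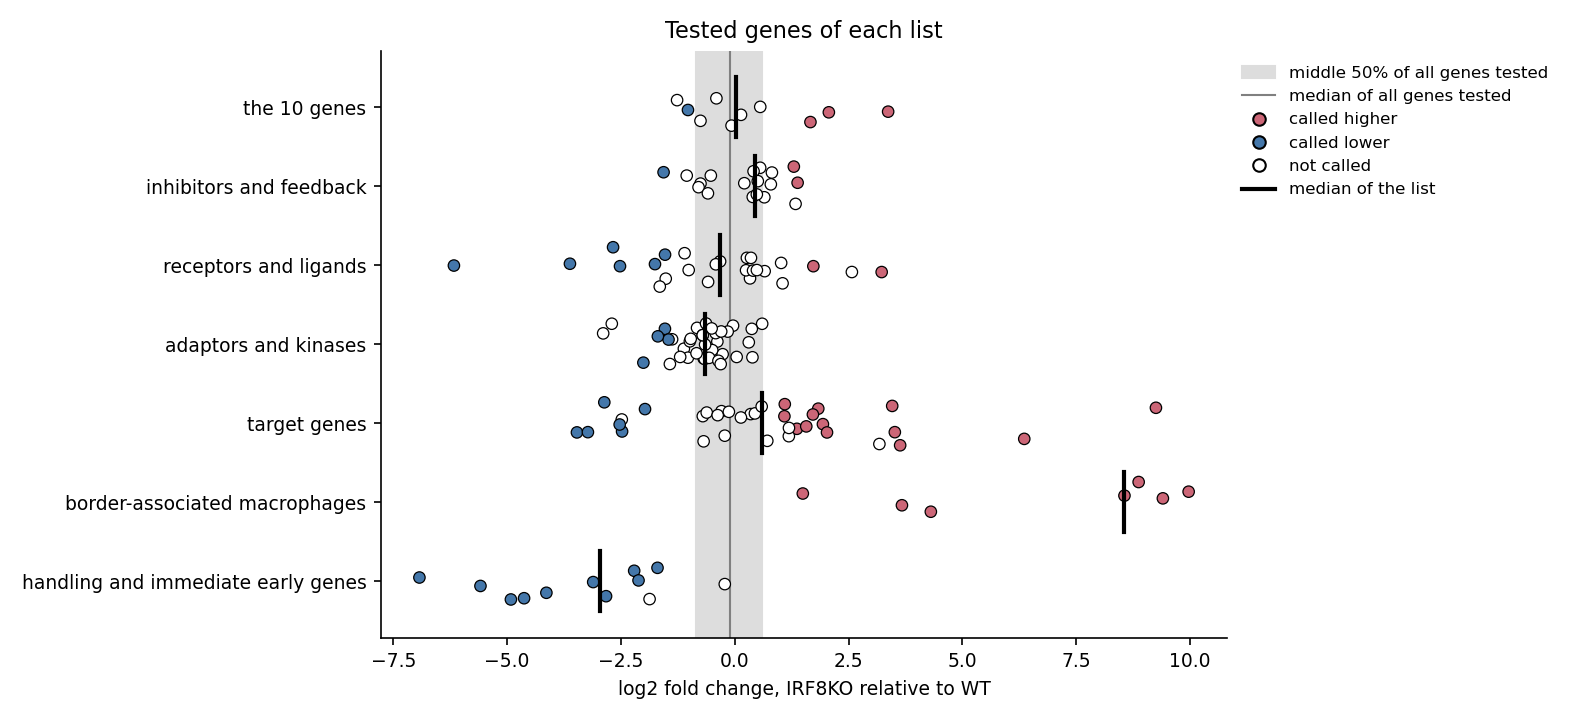
Log2 fold change of IRF8KO relative to WT (x axis) for each tested gene (points) of 7 lists (y axis), with the median of the list as a black line. The grey band is the middle 50% of all genes tested, from −0.85 to 0.60. Target genes spread to both sides of it, adaptors and kinases lie mostly within or below it, and all 7 tested genes of border-associated macrophages were called higher.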

How the data were processed

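The authors deposited 1 table of raw read counts for each library, in the column layout of STAR gene counts. The submitters' processing notes name STAR 2.5.2b, Picard 2.17.11, featureCounts and the build mm10, with no role for each, and the annotation is not given in the sources used here. Per the labels' protocols, cDNA came from the SMART-Seq v4 kit and libraries from Nextera XT. The sense share of the counts was 49.8% to 50.3%, so the counts ignoring strand were used and the deposited counts by strand were alternatives. No molecular identifiers are listed, so counting intervals cover counting error only. Gene symbols, positions and exonic lengths came from GENCODE M21 (GRCm38, the same assembly as mm10). Of 49585 identifiers, 49326 matched once their version number was dropped, and 43749 matched with it. The 4 summary lines of each file were left out. They hold, as shares of the uniquely mapped reads, 2.44% to 7.70% outside genes and 8.20% to 10.8% on several genes.

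The main test was that of edgeR 4.0.16, run in R 4.3.3 (default expression filter at 10 counts, TMM scaling, quasi-likelihood F test, genotype as the only term), adjusted over all 11041 genes by Benjamini-Hochberg. A gene was called at an adjusted p under 0.05. SE came from the F statistic. The procedure was first tested on simulated data. The labels do not say whether the libraries came from separate litters, so p-values measure the spread between these libraries. DESeq2 1.42.0 and limma 3.58.1 were among 17 alternatives, and 1 more, leaving out WT replicates 1 and 2 together, was added after seeing the data. The 10 genes and all lists were chosen with earlier results of these data known. Beyond the 10, the text names by rule at most 5 called genes of each list and direction in order of p (mean of at least 1 CPM), the remaining I-kappa-B genes, the kinase complex, the TNF receptors, Irf8, the nearest profiles and at most 3 of the most abundant markers of a list. Other markers, Il1b, Lta, Ltb and the genes between Relb and Bcl3 were named after their values were seen, and were not followed through the alternatives. No pair of libraries of a group was alike within sampling noise (chi-square per degree of freedom at least 8.57).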

Additional observations from a re-analysis of the deposited data

How the results depend on the processing

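Of 944 values of 53 named genes under the alternatives, 828 kept direction and side of the threshold, 79 lost a call, 17 gained one and 20 changed sign. Leaving out 1 library moved the count of called genes between 910 and 4003 (2109 with all), that of the 10 genes between 3 and 6 (4 with all), and that of the pathway lists between 18 and 60 (34 with all). Against WT replicate 3 alone these counts were 1245, 2 and 22. Library size alone gave 652 higher and 1914 lower calls, and shifted the median of all genes from −0.11 to −0.61. The cause of these changes was not tested. Of these 53 genes, the one called with all libraries that changed sign was Btg2, at 0.18 against WT replicate 3 alone.

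Sign changes of uncalled genes were these. Against WT replicate 3 alone, Tnf was 1.46, Nfkbid 2.21, Nfkbiz 2.29, Chuk 1.30, Ikbkb 0.32 and Myd88 −0.17. Leaving out 1 library gave ranges of −1.20 to 0.56 for Tnf, −1.26 to 0.27 for Nfkbid, −0.998 to 0.24 for Nfkbiz, −0.28 to 0.42 for Rela, −0.51 to 0.013 for Tnfrsf1b and −0.031 to 0.35 for Myd88. Rela was 0.080 without IRF8KO replicate 2 and 0.0044 with limma-voom. Myd88 was −0.35 with library size alone, −0.0078 with first-strand counts and −0.15 with the GC correction, under which Rel was 0.018.

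Replicate numbers are shared by the genotypes. After the mean of each genotype was subtracted from log2 CPM, what was left correlated between same-numbered libraries at −0.26, 0.33 and 0.11. These libraries were therefore not taken as pairs. With the replicate number as a block 2353 genes were called, among them 4 of the 10 genes and 36 pathway genes, and Rela was 0.0030. Rel, Tnf and, in WT, Bcl3 had fewer than 100 counts in most libraries, which limits the precision of each value.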
